A study of Mus musculus with 4 samples.

Results

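CHD8 binding was examined at the loci of 5 genes of the core pluripotency network, Pou5f1, Nanog, Sox2, Klf4 and Esrrb, in mouse embryonic stem cells. The members were all peaks of the 2 deposited CHD8 peak lists that overlap a fixed mm9 window around each gene: chromosome 17 from 35620000 to 35660000 for Pou5f1, chromosome 6 from 122640000 to 122720000 for Nanog, chromosome 3 from 34520000 to 34680000 for Sox2 with its downstream enhancer, chromosome 4 from 55470000 to 55560000 for Klf4 with downstream enhancers, and chromosome 12 from 87690000 to 87870000 for Esrrb. Together these windows span 550 kb. They held 57 of the 22706 peaks of replicate 1 and 79 of the 31002 peaks of replicate 2, 136 of 53708 in all. The cells were grown in 2i medium on gelatin, and both copies of the endogenous Chd8 gene carried a C-terminal 3xFLAG tag, in the ChIP samples and the inputs alike as far as the labels say. The series held 2 ChIP samples made with an anti-FLAG antibody and 2 input samples made without antibody, and no anti-FLAG ChIP of untagged cells, so CHD8 peaks and any peaks of the antibody itself cannot be told apart. Peak lists hold no marker levels, and the labelled cell type was not checked. The labels do not state separate cultures for the replicates, so the spread between them may be technical only.

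CHD8 is a chromatin remodeller of the CHD family that uses ATP to move nucleosomes, and loss of a single CHD8 copy in humans is a known cause of autism. Pou5f1 encodes OCT4, a POU-domain factor that binds DNA jointly with the HMG-box factor SOX2 at composite sites; Nanog encodes a homeodomain factor, Klf4 a zinc finger factor that binds GC-rich sequence, and Esrrb an orphan nuclear receptor. These factors bind the regulatory sequence of their own and each other's genes, and in embryonic stem cells the genes are driven by promoters together with groups of nearby or distant enhancers. Sox2 is known for an enhancer group far downstream of the gene.

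The promoters of these genes differ in sequence, and 4 are shown because they hold the motifs counted here. Each line gives the 250 bases before the most upstream start that RefSeq lists for the gene in GRCm38.p6, read 5′ to 3′ on the gene's strand. GRCm38 is a later build than the mm9 of the peaks, so these positions cannot be set against the peak positions. Capitals mark ATGCAAA, an octamer-like element of OCT4 sites, or GGGCGG, the GC box, on either strand.
Pou5f1 (chr17:35505782-35506031, + strand): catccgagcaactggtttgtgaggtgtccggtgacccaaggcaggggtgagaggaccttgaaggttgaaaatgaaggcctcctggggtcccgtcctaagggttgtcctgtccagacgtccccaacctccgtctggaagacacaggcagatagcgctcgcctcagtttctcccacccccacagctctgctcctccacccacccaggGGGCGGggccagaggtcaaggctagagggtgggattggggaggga
Nanog (chr6:122707239-122707488, + strand): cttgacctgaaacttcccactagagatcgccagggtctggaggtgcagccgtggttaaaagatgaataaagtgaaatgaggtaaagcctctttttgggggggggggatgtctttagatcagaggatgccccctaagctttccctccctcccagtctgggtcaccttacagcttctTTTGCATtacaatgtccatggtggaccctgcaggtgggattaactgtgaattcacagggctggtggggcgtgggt
Sox2 (chr3:34649745-34649994, + strand): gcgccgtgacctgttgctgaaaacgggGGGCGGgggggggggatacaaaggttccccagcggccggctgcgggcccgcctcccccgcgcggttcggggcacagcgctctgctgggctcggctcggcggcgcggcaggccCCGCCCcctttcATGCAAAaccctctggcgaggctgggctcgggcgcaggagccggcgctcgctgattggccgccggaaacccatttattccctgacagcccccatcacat
Klf4 (chr4:55532476-55532725, - strand): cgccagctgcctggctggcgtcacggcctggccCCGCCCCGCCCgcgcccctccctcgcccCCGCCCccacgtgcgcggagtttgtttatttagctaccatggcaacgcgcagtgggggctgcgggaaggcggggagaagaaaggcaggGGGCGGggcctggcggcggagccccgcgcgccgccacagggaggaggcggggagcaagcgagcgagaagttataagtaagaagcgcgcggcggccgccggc
ATGCAAA occurred once in the Nanog sequence, starting 75 bases before the start, and once in the Sox2 sequence, 99 bases before it. It occurred in 4.12% of all 32851 promoters of the same length in the table. GGGCGG or its reverse complement occurred once in Pou5f1, 2 times in Sox2 and 4 times in Klf4, where 2 of the matches overlap, against a share of 32.7% of all promoters with at least 1 match. The Esrrb sequence, from the first of 2 listed starts, held neither motif. Klf4 held 32 CpG dinucleotides and Sox2 27, while Pou5f1 held 8, Esrrb 6 and Nanog 3, beside a median of 6 over all promoters. These matches are letters in a window, and whether any of them is a bound site was not tested. No mm9 annotation was used here, so no peak below is assigned to a promoter, an exon or an enhancer.

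CHD8 peaks were found in all 5 windows in both replicates, and no window was empty. Replicates 1 and 2 gave 4 and 8 peaks in the Pou5f1 window, 13 and 17 in the Nanog window, 16 and 22 in the Sox2 window, 15 and 15 in the Klf4 window, and 9 and 17 in the Esrrb window. Over all 5 windows this was 103.6 peaks per Mb in replicate 1 (95% exact Poisson interval 78.5 to 134.3) and 143.6 in replicate 2 (113.7 to 179.01). The whole lists held 8.86 and 12.1 peaks per Mb, so the density in the windows was 11.7 and 11.9 times that of the lists. Peaks covered 7.26% of the windows in replicate 1 and 13.0% in replicate 2, against 0.5999% and 0.895% of the chromosome spans. Per Mb, replicate 1 ranked Klf4 first with 166.7 (93.3 to 274.9), then Nanog with 162.5 (86.5 to 277.9), Pou5f1 with 100 (27.2 to 256.04) and Sox2 with 100 (57.2 to 162.4), and Esrrb last with 50 (22.9 to 94.9). The intervals of neighbours in that order overlapped. In replicate 2 the order was Nanog with 212.5, Pou5f1 with 200, Klf4 with 166.7, Sox2 with 137.5 and Esrrb with 94.4, again with overlapping intervals between neighbours. Nanog stood first or next to first in both lists, and Esrrb came last in both. This order depends on how far each window was drawn, from 40 kb at Pou5f1 to 180 kb at Esrrb. In replicate 2 the 80 kb of Nanog and the 180 kb of Esrrb held 17 peaks each. The intervals cover counting error only, and the windows were drawn around these genes with earlier results of these data known.

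**Figure D1:**
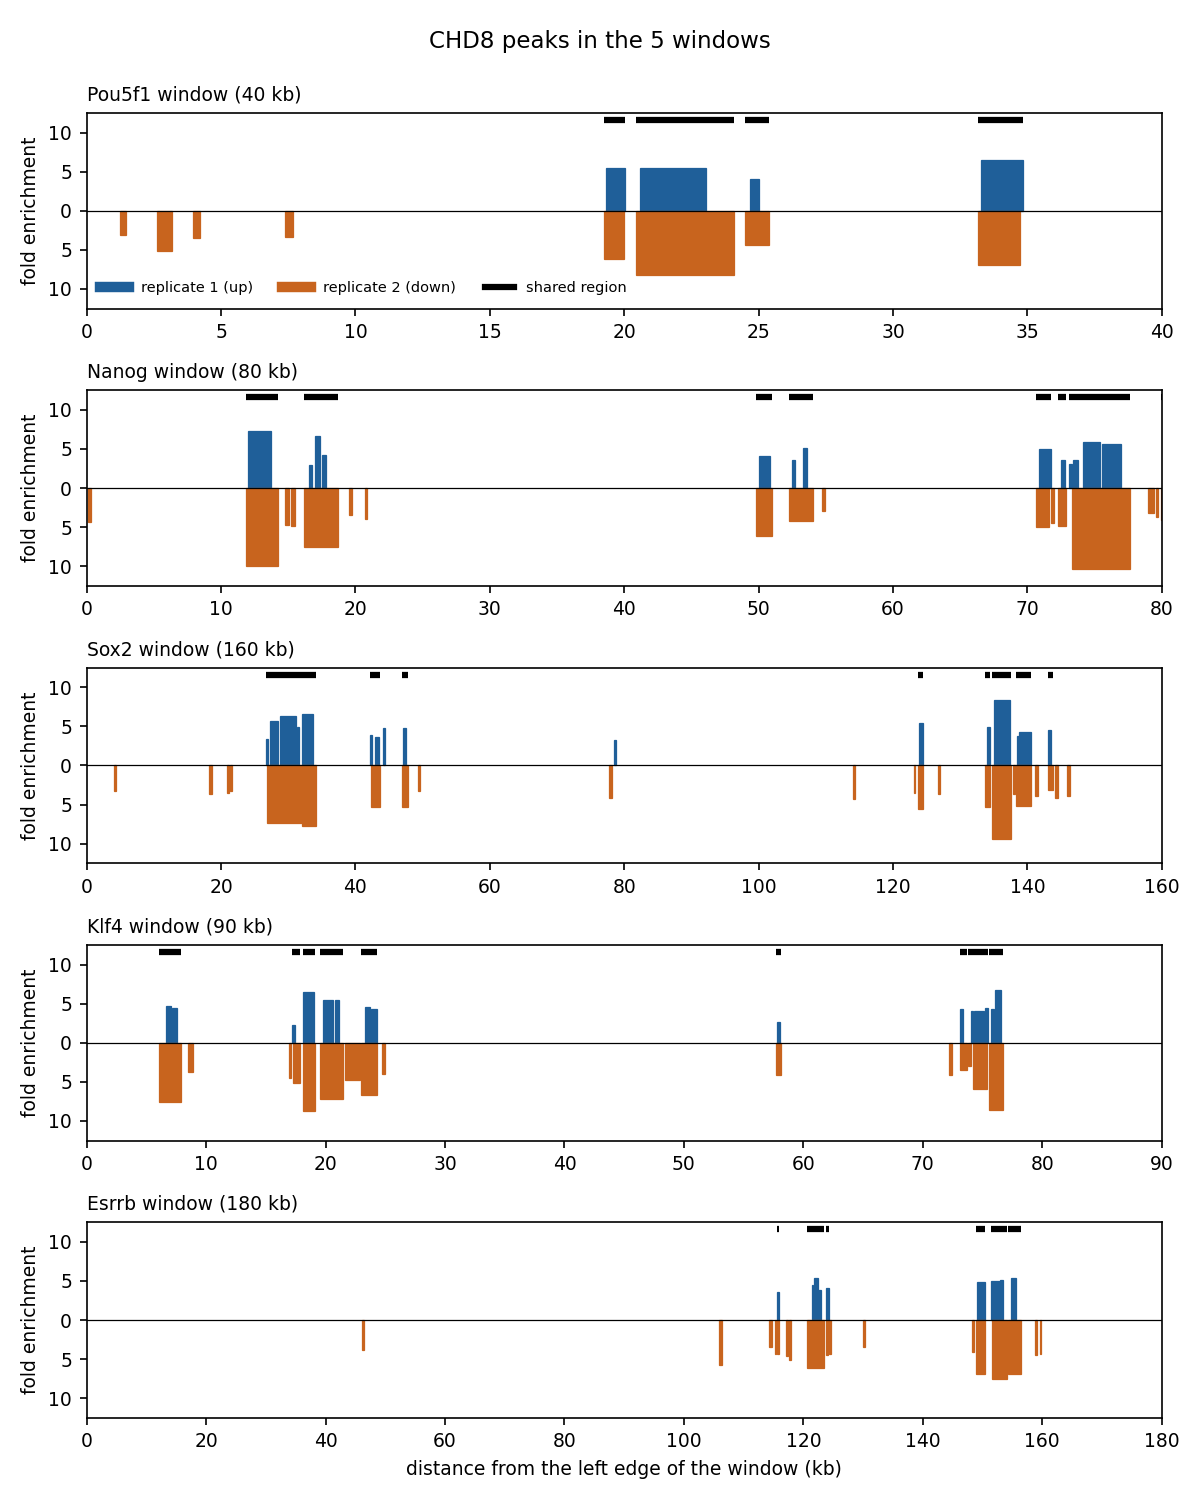
Peaks of both replicates in the 5 windows. The horizontal axis is the distance from the left edge of each window in kb, bar width is peak width and bar height is the authors' fold enrichment (linear), upward for replicate 1 and downward for replicate 2; black bars mark the 36 shared regions, and peaks past a window's edge are clipped. Replicate 1 peaks lie in a few groups per window, and the replicate 2 peaks without a partner have a median fold of 3.91 and reach 5.71.

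A peak of one list met a peak of the other in 36 places, called shared regions below: 4 at Pou5f1, 8 at Nanog, 9 at Sox2, 9 at Klf4 and 6 at Esrrb. Few stretches of the genome of equal length held as many. When all chromosomes were divided into consecutive windows of 40 kb, 18.6% held at least 1 shared region and 0.867% held 4 or more, as Pou5f1 did. For 80 kb the shares were 28.7% with at least 1 and 0.25% with 8 or more, as at Nanog. At 90 kb they were 30.8% and 0.19% with 9 or more, as at Klf4. At 160 kb they were 41.1% and 1.15% with 9 or more, as at Sox2. At 180 kb they were 43.6% and 5.33% with 6 or more, as at Esrrb, the least unusual of the windows by this measure. These shares moved with the list counted. In the peaks of replicate 1 alone, the share of windows with as many peaks was 1.801% for Pou5f1, 0.0749% for Nanog, 0.262% for Sox2, 0.0527% for Klf4 and 3.29% for Esrrb. In replicate 2 alone it was 0.364%, 0.0905%, 0.219%, 0.239% and 1.096% in the same order. With shared regions of only the higher-scoring 50% of each list, it was 0.629%, 0.369%, 0.564%, 0.472% and 4.85%. The dividing windows ignore genes, whereas the 5 windows were centred on known genes and enhancers, so these shares are a background and not a test.

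**Figure D2:**
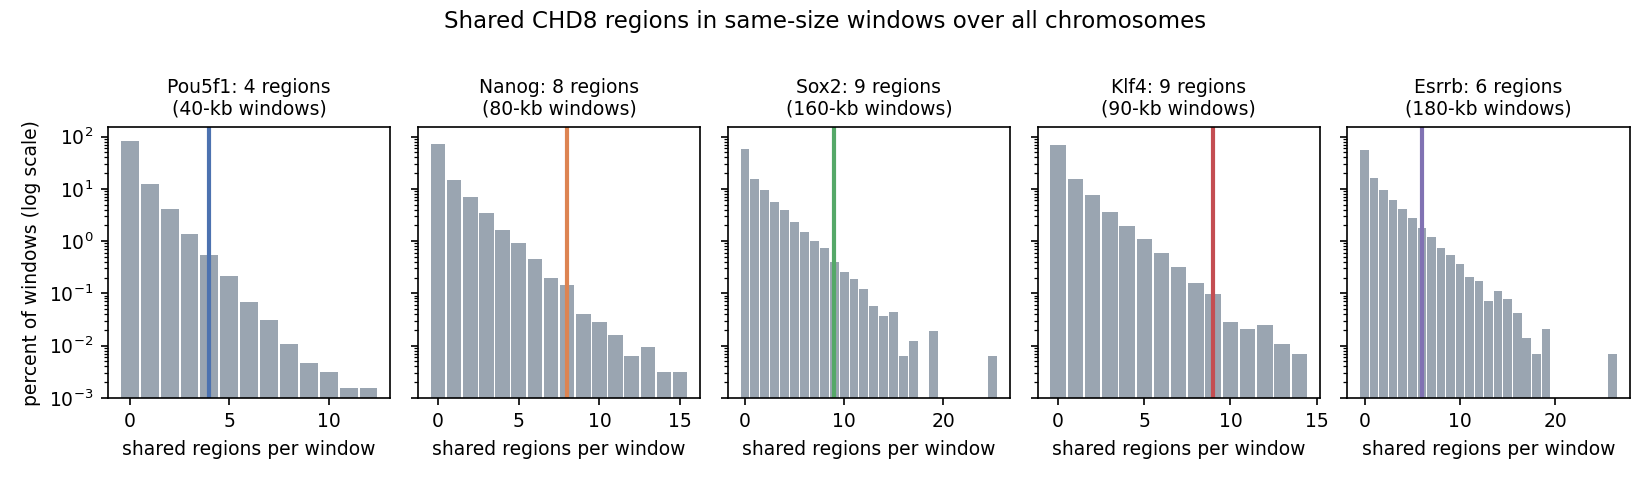
Percent of same-size windows over all chromosomes (vertical axis, log scale) by their number of shared regions (horizontal axis), with a coloured line at the count of the gene's own window. The lines lie in the right tail of each distribution, nearest to the bulk for Esrrb, where 5.33% of windows held at least as many.

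The peaks were many, but their median strength was ordinary and few ranked among the strongest. The median fold enrichment of the members was 4.61 in replicate 1 and 4.36 in replicate 2, beside 4.51 and 4.71 in the whole lists. The highest member reached 8.33 in replicate 1 and 10.4 in replicate 2, whereas the lists reached 43.9 and 36.7. Ranked by −log10 q, 0 of 57 members were in the top 10% of replicate 1 and 3 of 79 in the top 10% of replicate 2. Other windows that held at least as many shared regions mostly had a stronger best peak. Many of them held more regions than the gene's window, and so had more peaks from which the best was taken. At Esrrb, 95.6% of the 758 windows with 6 or more regions had a higher best fold enrichment in replicate 1 and 91.03% in replicate 2. Only 255 of these windows held exactly 6. At Klf4 the shares were 77.8% and 74.1% of 54 windows, at Sox2 77.7% and 82.1% of 184, at Nanog 72.5% and 60% of 80, and at Pou5f1 62.4% and 63.3% of 556. Summits of the members stood on 14 to 36 reads in the first list and on 15 to 51 in the second. The fold enrichments and significances are the authors' own, and those of the lists are on different scales, since the background was 3.44 reads per 200 bp in replicate 1 and 2.55 in replicate 2. The mean folds and SDs below join both scales and the local control of each list. Such an SD is therefore not a measure of replicate spread alone.

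At Pou5f1, the gene of OCT4, the 4 shared regions formed a compact group of 3 and a separate region to its right. Here and below, regions with gaps of at most 5 kb are called a group, a limit chosen after the data were seen. The group ran from 35639253 to 35645375, and 86.4% of its 6123 bp lay in shared regions. Its largest region, 35640452 to 35644081, was 3630 bp wide, with 31 summit reads and a fold enrichment of 5.47 in replicate 1 and 49 reads and 8.18 in replicate 2, a mean fold of 6.83 ± 1.92 (SD, n = 2). Control coverage there was 1.41 and 1.34 times the genome-wide background. To its left, 35639253 to 35640027 had folds of 5.41 and 6.12, and to its right 35644488 to 35645375 had 4.05 and 4.36. The separate region lay 7797 bp further at 35653173 to 35654834, with 28 reads and 6.53 in replicate 1 and 33 reads and 6.93 in replicate 2, a mean of 6.73 ± 0.28 (SD, n = 2). By fold it was the highest member of this window in replicate 1, while the wide region was the highest in replicate 2. By summit reads the wide region was the highest in both replicates. The first 19253 bp of the window held no shared region. Replicate 2 alone had 4 peaks there, with folds of 3.08 to 5.12, at least 11673 bp from any replicate 1 peak. The nearest protein-coding genes on either side of Pou5f1 in the GRCm38 gene table are H2-Q10 and Tcf19. Whether a peak of this window belongs to Pou5f1 or to a neighbour was not tested.

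At Nanog the 8 shared regions fell into 3 groups. The left group, 122651858 to 122658720, held a pair of regions of similar width. The first, 122651858 to 122654273, had 33 reads and a fold of 7.25 in replicate 1 and 48 reads and 9.95 in replicate 2, a mean of 8.60 ± 1.91 (SD, n = 2). The second, 122656195 to 122658720, was a single replicate 2 peak of fold 7.53 over 3 replicate 1 peaks with folds of 2.93, 6.68 and 4.20, and the best summits of the replicates lay 6 bp apart. After 31107 bp without a shared region came the middle group, 122689828 to 122694017, whose regions were weaker, with folds of 4.05 and 6.12 and of 5.18 and 4.20. The right group began at 122710677 and crossed the window's edge to 122721351. It held the widest Nanog region, 122713107 to 122717619, where 1 replicate 2 peak of 4319 bp spanned 4 replicate 1 peaks. Its most significant replicate 1 peak had 32 reads and a fold of 5.64, and the replicate 2 peak had 50 reads and 10.4, the highest fold of any member. The mean fold was 7.997 ± 3.33 (SD, n = 2). In the GRCm38 gene table the nearest protein-coding genes on either side of Nanog are Dppa3, a gene of the early germ line and naive cells, and Slc2a3, which encodes a glucose transporter. The peaks are not placed relative to those genes here.

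The Sox2 window held its shared regions at both ends, with a long stretch between them. On the left, a nearly continuous block from 34546721 to 34554088 was 98.8% covered. Its first region, 5272 bp wide, was the widest of all members, a single replicate 2 peak with 40 reads and a fold of 7.39 over 4 replicate 1 peaks with folds of 3.38 to 6.31. The adjoining region, 34552082 to 34554088, had 31 reads and 6.56 in replicate 1 and 42 reads and 7.75 in replicate 2. A weaker pair of regions followed from 34562128 to 34567810, with folds of 3.59 and 4.73 in replicate 1 and 5.32 at both in replicate 2. No shared region lay in the next 75903 bp. In that stretch the replicates had peaks at 34598538 to 34598790 (replicate 1, fold 3.28) and at 34597679 to 34598213 (replicate 2, fold 4.11) that missed each other by 325 bp. On the right, a lone region at 34643714 to 34644479 had 23 and 26 reads and summits 9 bp apart. The last group, 34653757 to 34663854, held the strongest member of the whole set by mean fold, 34654770 to 34657546, with 36 reads and 8.33 in replicate 1 and 51 reads and 9.36 in replicate 2. Its mean fold was 8.85 ± 0.72 (SD, n = 2), and it ranked 3017 of 22706 and 2908 of 31002. The region to its right, 34658362 to 34660576, had 28 reads in each replicate and was 1 of 2 members not higher in replicate 2 after division by depth.

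The Klf4 window held groups near both ends, like the Sox2 window over a shorter distance. The left side began with a region at 55476018 to 55477920, with 25 reads and a fold of 4.44 in replicate 1 and 36 reads and 7.53 in replicate 2. A group of 4 regions ran from 55487193 to 55494340. Its strongest, 55488132 to 55489131, had 28 reads and 6.53 in replicate 1 and 42 reads and 8.74 in replicate 2, a mean of 7.64 ± 1.56 (SD, n = 2). The weakest of the group, 55487193 to 55487845, had folds of 2.31 and 5.12, and its replicate 1 peak ranked 22682 of 22706. Then 33375 bp held no shared region, and a lone weak one stood at 55527716 to 55528115 with folds of 2.70 and 4.11. Control coverage at these low replicate 1 peaks was the highest of all members, 1.97 times the background at both. The right group, 55543069 to 55546675, was 94.4% covered. Its outermost region, 55545531 to 55546675, had 29 reads and 6.76 in replicate 1 and 41 reads and 8.54 in replicate 2, a mean of 7.65 ± 1.26 (SD, n = 2), and the other regions of the group had folds of 3.49 to 5.96. Beyond the window's right edge the next peak lay 1254628 bp away in replicate 1 and 1254140 bp away in replicate 2. On the left the nearest lay 106143 bp and 58328 bp outside.

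At Esrrb the shared regions lay in the right part of the window, in 2 groups of 3. The first 115537 bp held no replicate 1 peak. Replicate 2 had 4 peaks of its own there. A pair lay within 805 bp of the first shared region's replicate 1 peak, with folds of 3.46 and 4.31. The others stood further off, at 87736124 to 87736459 with a fold of 3.81 and at 87795867 to 87796356 with 29 reads and a fold of 5.71 (exact Poisson interval 3.91 to 8.09), the strongest member without a partner. The first group ran from 87805537 to 87814244, and its main region, 87810650 to 87813502, was 2853 bp wide with 23 reads and 5.41 in replicate 1 and 29 reads and 6.12 in replicate 2. The second group, 87838917 to 87846422, was 84.7% covered by 3 wide regions. Their folds were 4.92 and 6.93, 5.18 and 7.53, and 5.33 and 6.86 in replicates 1 and 2. The middle one had the highest mean fold of the window, 6.36 ± 1.66 (SD, n = 2). By summit reads the right one was higher, with 25 and 37 reads against 22 and 36. No Esrrb member exceeded a fold of 5.41 in replicate 1, the lowest maximum of the 5 windows. A stretch without a peak is one where no position passed the caller's threshold. Where control coverage was at the genome-wide value, the weakest called summit had 11 reads in the first list and 13 in the second, and weaker binding was not detectable at this depth.

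With overlap from 1 bp, most replicate 1 members overlapped a replicate 2 peak, a larger share than in the list. Under 50% reciprocal overlap that share was below the list's. The share of replicate 2 members with a partner lay below or above that of the list, depending on which peaks were kept. Of the 57 replicate 1 members, 55 overlapped a replicate 2 peak, 96.5% (95% Wilson interval 88.1 to 99.03), beside 89.1% of the whole list. Of the 79 replicate 2 members, 37 overlapped a replicate 1 peak, 46.8% (36.2 to 57.7), beside 60.9% of the whole list. These intervals treat peaks as independent, which peaks of a locus are not. Under 50% reciprocal overlap the shares were 31.6% and 24.1%, beside 59.5% and 43.6% of the lists. With lists of equal length, 61.8% of 55 replicate 2 members overlapped, beside 73.9% of that list. With only the higher-scoring 50% of each list the direction turned, and 24 of 34 replicate 2 members overlapped, 70.6% beside 64.4% of that list. Both replicate 1 members without a partner were at Sox2, within 355 bp of a replicate 2 peak. The 42 replicate 2 members without a partner were weaker and narrower: their median fold was 3.91 and their median width 284.5 bp, while those with a partner had 6.12 and 1309 bp. They numbered 4 at Pou5f1, 9 at Nanog, 13 at Sox2, 5 at Klf4 and 11 at Esrrb. Of these 42, 17 lay within 1 kb of a replicate 1 peak and 29 within 5 kb. Some of them lay inside a group described above, some beside a group and some near a lone region. The same distances were not computed for the whole list.

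Summit reads of the shared regions rose together in the replicates. The correlation of log reads was 0.85 over the 36 members and 0.89 over all shared regions. Divided by ChIP depth, which was 3.44 and 3.56 reads per 200 bp, the summit was higher in replicate 2 at 34 of 36 regions, with a median ratio of 1.31. Over all 17867 shared regions it was higher at 88.4%, with a median ratio of 1.25. The ratio ranged from 0.92 at the lone Klf4 region to 1.67 at 122712260 to 122712884 in the Nanog window. Summed over the 36 regions, 847 reads stood against 1153, a depth-normalised ratio of 1.31 (exact interval 1.201 to 1.44). The sums by window gave 1.21 (1.02 to 1.45) for Sox2, 1.31 (0.9997 to 1.71) for Pou5f1, 1.33 (1.11 to 1.60) for Klf4, 1.36 (1.07 to 1.72) for Esrrb and 1.39 (1.15 to 1.68) for Nanog. Around the median ratio of all regions, an exact two-sided binomial test gave 0 of 36 members with a Benjamini-Hochberg adjusted p under 0.05 and 0 with an unadjusted p under 0.05, the lowest unadjusted p being 0.337. Over all 17867 regions it called 0, or 0.0%, with 232 at an unadjusted p under 0.05, so a count of 0 among the members is no different from the background. The exact Poisson intervals of the depth-normalised summits overlapped between replicates at all 36 regions. The comparison is between a pair of libraries, and each summit was picked by the caller as the maximum of its own peak. It holds only regions called in both lists. The 2 replicate 1 members and 42 replicate 2 members without a partner are left out, so the comparison covers shared regions only. At read numbers this low, the lack of a call does not show that the summits were equal.

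**Figure D3:**
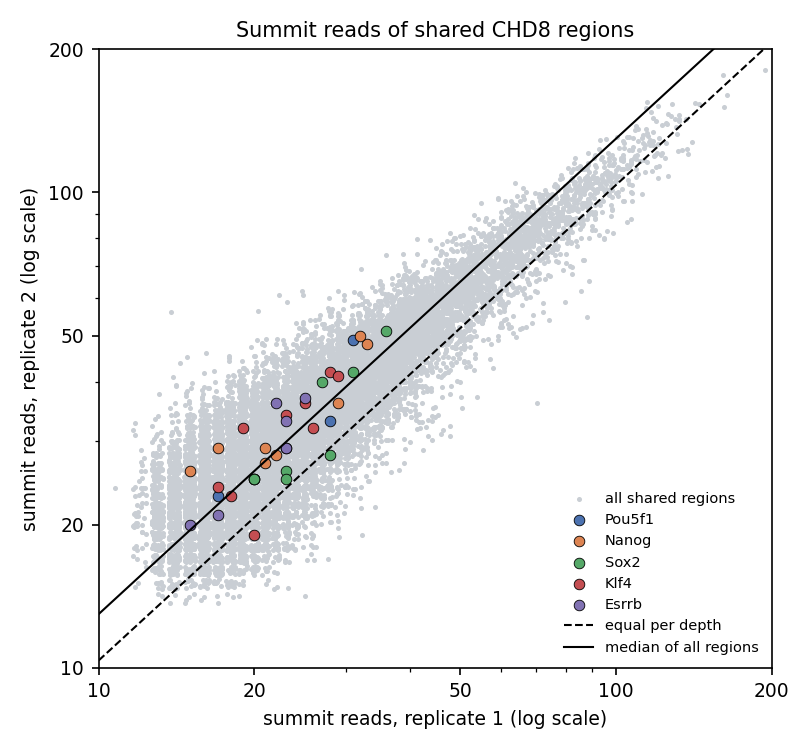
Summit reads of shared regions in replicate 1 (horizontal) and replicate 2 (vertical), both on log scales; grey points are all 17867 regions with a small random offset, coloured points the 36 members by window, some of which coincide. The dashed line marks equal reads per depth and the solid line the median ratio of all regions; the members lie at 15 to 36 and 19 to 51 reads, well below the highest regions.

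The 36 shared regions of the windows were wide, often split, and placed their summits less exactly than shared regions in general. The single member peaks were not wide. Their median width was 415 bp in replicate 1 and 454 bp in replicate 2, beside 495 bp and 514 bp in the whole lists. The median width of the 36 joined regions was 1460.5 bp, against 974 bp for all shared regions. Of these 36, 23 were wider than 1 kb, 63.9% against 48.5%. In 12 of 36, or 33.3%, a single replicate 2 peak joined several replicate 1 peaks, against 10.3% of all and 17.6% of the regions of like width and reads defined below. This was so at 3 Nanog, 3 Sox2, 4 Klf4 and 2 Esrrb regions and at 0 of 4 Pou5f1 regions. The median distance between the best summits was 261 bp, against 95 bp for all. Within 100 bp lay 9 of 36, 25%, against 51.9% of all. Among the 3961 regions with both the width and the replicate 1 summit reads between the members' lower and upper quartiles (773 to 2190 bp and 20 to 28 reads), the median summit distance was 138 bp and 39.5% lay within 100 bp. Members were also grouped: 32 of 36 had another shared region within 5 kb, 88.9% against 31.1% of all. These values describe the regions and were not tested, since regions of a locus are not independent of each other. The lowest summit distances were 1 bp and 5 bp in the Klf4 window and 6 bp in the Nanog window, so near-identical summits occurred beside distant ones.

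**Figure D4:**
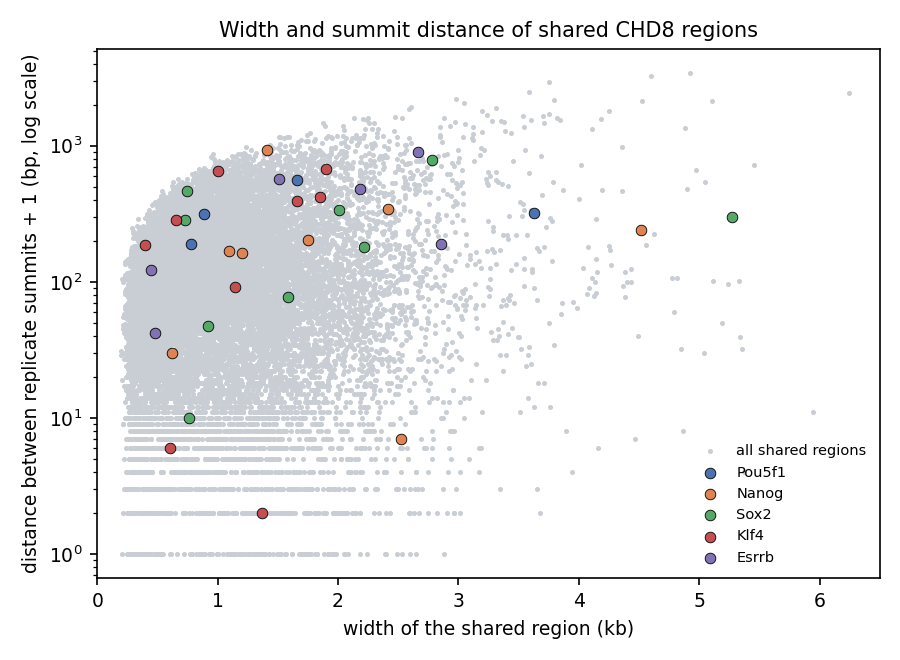
Width of shared regions in kb (horizontal) against the distance between the replicates' summits plus 1 bp (vertical, log scale); grey points are all 17867 regions and coloured points the 36 members by window. Most members lie above 100 bp, and 9 of 36 lie at or below it.

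Control coverage at the members stayed under 2 times the genome-wide value. The caller's control background exceeded its genome-wide value at 42.1% of replicate 1 members and 35.4% of replicate 2 members, beside 46.03% and 40.9% of the lists, and reached at most 1.97 and 1.96 times that value, so control coverage was raised at no larger share of the members than of the lists. Just inside the edges, the outermost members had folds of 3.08 and 6.93 at Pou5f1 in replicate 2. At Nanog the last replicate 2 member, with a fold of 4.06, ended at 122721351, past the edge, and the overlapping replicate 1 peak, fold 4.51, began 78 bp outside and is not a member. The nearest replicate 2 peaks outside the Sox2 window lay 539481 bp to the left, fold 7.13, and 790 bp to the right, fold 4.12.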

How the data were processed

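The labels name chromatin immunoprecipitation sequencing with tagmentation on beads. The tools Bowtie2 2.1.0 and MACS2 2.1.1 and the build mm9 appear, with no role, per the submitters' processing notes. Which control each sample had, and which filters, is not given in the sources used here. The authors deposited 1 peak list of 10 columns per ChIP sample; no table of the inputs was analysed here. The deposited fold enrichment is the linear ratio of the summit over the caller's background, significance is deposited as −log10 p and −log10 q, and the deposited score is 10 times −log10 q cut to a whole number. The column order is that of the narrowPeak format and was checked on the values. Positions are mm9, 1-based.

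Summit reads and local background were solved from fold enrichment and p-value with the formulas of MACS2 (pseudocount 1, Poisson tail). The solutions returned every deposited log10 p to within 0.002; 78 replicate 2 peaks, 1 of them a member, had several solutions and the closest was taken. On simulated lists of 22706 and 31002 peaks made with the same formulas, 100.0% and 99.97% of read numbers were recovered. In simulated reads for the replicate comparison, the exact binomial test called 90.5% of 200 regions changed 3-fold. Overlap was from 1 bp; connected overlapping peaks of both lists form a shared region, represented by its peak of highest −log10 q. Shares carry Wilson intervals and densities exact Poisson intervals (95%, counting error only). The rule for naming took all peaks in the windows and the nearest outside. A list of other pluripotency genes was not used here for want of an mm9 annotation. The members, windows and lists were chosen with earlier results of these data known. The alternatives were keeping the higher-scoring 50% of each list, equal-length lists, wider windows, summit position, 50% reciprocal overlap, other rankings, shifted or autosomal tiling and each list alone. Python 3.11.15, numpy 2.4.6, pandas 2.3.3, scipy 1.17.1, statsmodels 0.14.6 and matplotlib 3.10.9 were used.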

Additional observations from a re-analysis of the deposited data

How the results depend on the processing

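The count of peaks in the windows, 68.0 as the mean of the lists, was 33.0 when only the higher-scoring 50% of each list was kept, which holds fewer peaks by construction, and 57.0 to 79.0 with either replicate left out; with equal-length lists, wider windows or summits inside the window it stayed within 1.5 times. The share of replicate 1 members with a partner was 31.6% under 50% reciprocal overlap, below the list's 59.5%. That of replicate 2 members was 24.1% under that rule, below the list's 43.6%. It was 70.6% with the higher-scoring 50%, above the list's 64.4%, and 61.8% with equal-length lists, below the list's 73.9%. The median rank percentile of the 36 shared regions, 64.2 as the mean of the replicates, was 59.9 to 68.6 with either replicate left out and moved less than that with other rankings. Over all 17867 shared regions the medians were 59.5 in replicate 1 and 70.7 in replicate 2, so the 36 did not stand out. The member peaks, with or without a partner, had medians of 54.6 and 44.5. The binomial test of summit reads called 1 region against the plain depth ratio and 1 among regions with control at the genome-wide background, and 0 members in both. The mean share of same-size windows with as many shared regions, 1.56%, was 0.401% to 1.097% in the lists of single replicates, where peaks replace shared regions. No paired analysis was possible because no input table was analysed here and a single group remained; without either replicate, sharing has no value. The lists were made at 3.44 and 3.56 ChIP reads per 200 bp, so binding with fewer than about 11 to 13 summit reads was not detectable.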
